A study of Mus musculus with 9 samples.

Results

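The 10 genes described here move bile acids across the intestinal epithelium or respond to them. They were chosen by gene symbol as genes of bile acid uptake, binding and export and of the response to the bile acid receptor FXR. All 10 were found among the 24930 symbols of the table. Of the 10, 7 reached 1 FPKM in at least 3 libraries (FPKM scales fragments to transcript length and library size), Slc10a2 and Abcb11 stayed below that, and Fgf15 was listed at 0 in every library. In all, 12097 symbols met the same minimum and 5226 were listed at 0 throughout.

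The study sequenced poly(A) RNA of mouse intestinal epithelium, described as crypt cells, 8, 9 and 10 days after induction of a gain-of-function (GOF) allele of the gene for β-catenin, the effector of Wnt signalling. Each day gave 1 library per group, for 3 controls and 3 in each of 2 mutant sets. Set A is titled Bcathet and set B Cdx2het_Bcathet, so by title both sets are heterozygous for the β-catenin allele and set B also for Cdx2. The library names give CDX2HET with EXON3 to set A and EXON3 alone to set B, so it is uncertain which of the sets has the Cdx2 allele, and they are called A and B. The controls had Cdx2 itself at 108 to 139 FPKM, set A at 126 to 144 and set B at 178 to 196, so neither set was below control, and these levels do not settle which set carries the allele. The sources used here do not give the gut segment, strain, age, driver of induction, control genotype or number of animals pooled. Nothing states that libraries came from separate animals, and only the sex genes of 1 set B library, given below, bear on this. The p-values therefore reflect only how far these libraries spread. That spread may be technical in whole for control and set A and in part for set B.

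Bile acids are made in the liver, enter the gut with the bile and are recovered mainly by enterocytes of the ileum, the last segment of the small intestine. There the transporter ASBT takes them up from the lumen, the binding protein FABP6 carries them, and the OSTα-OSTβ pair exports them to the blood. Inside the cell they activate the nuclear receptor FXR, which raises transcription of FABP6, of the exporter pair, of the repressor SHP and of FGF15, a hormone that lowers bile acid synthesis in the liver.

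Summed FPKM ran from 624923 to 755802 per library, and at 1 FPKM a transcript of 1 kilobase rested on about 16.7 to 19.2 fragments. All 7 epithelial markers checked were high (mean 227 to 1593 FPKM, with Epcam at 703 to 794), all 14 absorptive enterocyte markers were present (mean 32.3 to 1198), and all 6 fibroblast, 3 smooth muscle and 5 macrophage and B cell markers had a mean under 1 FPKM. The set B library of day 9, called set B day 9 below, stood apart from the other mutants. Along principal component 1, which held 43.5% of the variance, it lay at −19.1, beside the controls at −21.6 to −22.7, while the other 5 mutant libraries lay at 2.57 to 30. Its Xist level was 0.1 FPKM (27 to 39.4 in the other 8 libraries) and its summed level of 4 Y-linked genes 41.7 FPKM (0.047 or less elsewhere). By these genes that library came from a male and the other 8 from females. Set B therefore holds more than 1 animal, and sex differs within it. Every comparison below is given with and without set B day 9 where that changes the call.

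RNA of the uptake transporter was low in all libraries. Slc10a2, which encodes ASBT, the sodium-dependent transporter that takes bile acids from the gut lumen, was at 0.737, 0.463 and 0.438 FPKM in the controls of days 8, 9 and 10, with set A at 0.634, 0.823 and 0.768 and set B at 0.843, 0.837 and 0.851. The mutant values ran higher but the ranges overlapped, since the day-8 control lay above the day-8 library of set A. The mean was 0.546 ± 0.166 in control (SD, n = 3) and 0.793 ± 0.0834 in the mutants (SD, n = 6; two-sided exact permutation p = 0.0476). In a fit to all 19704 genes above 0 the log2 difference was 0.22 ± 0.08 (standard error) and did not pass (adjusted p = 0.251 in limma). These levels rest on about 34 to 65 fragments per library.

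RNA of the cytosolic bile acid binding protein was also at a low level. Fabp6, which encodes the ileal bile acid binding protein, was at 1.16, 1.73 and 1.30 FPKM in the controls, with set A at 1.64, 1.82 and 1.58 and set B at 1.65, 0.475 and 1.58. Of the 9 values, 8 lay between 1.16 and 1.82 and set B day 9 was alone below 1. With a coding transcript of 479 bases, this is about 4 to 16 fragments per library. The mean was 1.397 ± 0.298 FPKM in control and 1.46 ± 0.489 in the mutants (SD, n = 3 and 6), a log2 difference of 0.01 ± 0.19 (95% interval −0.43 to 0.45, adjusted p = 0.978). Fabp1, the fatty acid binding protein abundant in the proximal small intestine, was 302 to 825 times as high as Fabp6 on the FPKM scale in 8 libraries, and 3670 times in set B day 9, where Fabp6 rested on about 4 fragments.

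Fabp6 and Abcb11, which encodes the bile salt export pump of the hepatocyte, are textbook FXR targets, and their promoters are shown because they came closest of the members to the site that FXR binds with RXR, an inverted repeat of AGGTCA with 1 base between the copies. Those of the exporter pair are shown for comparison. The site AGGTCANTGACCT, which reads the same on both strands, was searched in RefSeq promoters of GRCm38.p6 (250 bases before to 50 after each gene start), which the table held for 8 of the 10 members. Capitals mark the windows with the fewest mismatches over the 12 fixed bases, and positions count from 0 at the gene start.
Fabp6 (chr11:43601513-43601812, minus strand): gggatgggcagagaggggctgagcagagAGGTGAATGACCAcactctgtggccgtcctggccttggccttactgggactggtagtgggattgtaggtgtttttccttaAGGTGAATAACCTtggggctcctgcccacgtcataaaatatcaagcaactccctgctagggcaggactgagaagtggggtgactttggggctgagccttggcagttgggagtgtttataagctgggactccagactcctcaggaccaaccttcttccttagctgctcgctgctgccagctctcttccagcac
Abcb11 (chr2:69342567-69342866, minus strand): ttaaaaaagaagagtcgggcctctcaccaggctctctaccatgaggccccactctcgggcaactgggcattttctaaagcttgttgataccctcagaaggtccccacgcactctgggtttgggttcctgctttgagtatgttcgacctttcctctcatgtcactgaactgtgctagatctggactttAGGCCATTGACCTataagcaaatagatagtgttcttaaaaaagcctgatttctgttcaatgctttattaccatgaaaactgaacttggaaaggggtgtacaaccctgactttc
Slc51b (chr9:65422724-65423023, minus strand): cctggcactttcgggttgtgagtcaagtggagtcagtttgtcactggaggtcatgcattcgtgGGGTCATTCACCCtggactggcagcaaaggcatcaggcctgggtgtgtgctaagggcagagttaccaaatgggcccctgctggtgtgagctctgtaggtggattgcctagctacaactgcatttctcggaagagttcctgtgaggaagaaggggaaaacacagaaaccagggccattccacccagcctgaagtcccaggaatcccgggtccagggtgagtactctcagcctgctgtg
Slc51a (chr16:32487830-32488129, minus strand): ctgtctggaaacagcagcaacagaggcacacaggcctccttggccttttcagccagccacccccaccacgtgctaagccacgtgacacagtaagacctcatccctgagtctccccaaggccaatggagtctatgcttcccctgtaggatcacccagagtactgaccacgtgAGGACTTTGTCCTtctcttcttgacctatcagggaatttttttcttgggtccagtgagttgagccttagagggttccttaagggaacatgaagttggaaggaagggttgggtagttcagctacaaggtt
The Abcb11 window starts at −63 and has 1 mismatch. The Fabp6 promoter holds 2 windows with 2 mismatches each, starting at −222 and −142. Of all 32851 promoters of this length in the table, 1.14% came within 2 mismatches. The closest windows of Slc51a and Slc51b had 3 mismatches, within which 11.4% of all promoters came, and those of Slc10a2, Nr1h4, Nr0b2 and Abcc2 had 4, within which 56.4% came. A match describes the letters alone. The pair with the closest windows, Fabp6 and Abcb11, was at most at 1.82 and 0.0333 FPKM, whereas Slc51a and Slc51b were among the highest members.

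RNA of the basal exporter pair was well represented. Slc51a, which encodes OSTα, was at 127, 75.0 and 96.9 FPKM in the controls, with set A at 74.4, 106 and 85.4 and set B at 71.7, 92.6 and 85.8. It was the highest member in each library, and the groups overlapped. The log2 difference between both sets and control was −0.19 ± 0.18 (95% interval −0.60 to 0.22, adjusted p = 0.573). Slc51b, which encodes OSTβ, the partner without which OSTα does not reach the membrane, was at 69.2, 25.1 and 43.8 FPKM in the controls, with set A at 32.9, 49.2 and 39.0 and set B at 54.5, 71.1 and 60.8. All 3 libraries of set B lay above all 3 of set A, while the control range covered nearly the whole span. Set B exceeded set A by 0.62 ± 0.33 on the log2 scale and did not pass over all genes (95% interval −0.14 to 1.38, adjusted p = 1.00), with 0.1 as its two-sided exact permutation p, the lowest possible for 3 against 3.

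The ratio of Slc51a to Slc51b, looked at after the values were seen, separated set B from the rest. The controls had ratios of 1.84, 2.99 and 2.21, set A had 2.26, 2.16 and 2.19, and set B had 1.31, 1.30 and 1.41. All 3 set B libraries, the day-9 library included, were below the 6 others. The mean ratio was 1.34 ± 0.0592 in set B, 2.20 ± 0.0507 in set A and 2.35 ± 0.588 in control (SD, n = 3 each). Because the ratio was picked after its values were seen, no test is given. How many ratios of other gene pairs part set B in this way was not counted, so the split cannot be called unusual. Exons of both genes overlap a gene on the opposite strand, Pcyt1a (27.4 to 39.3 FPKM) for Slc51a and Rasl12 (1.25 to 1.78) for Slc51b, and whether the libraries keep the strand is not stated in the labels.

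The members of the ABC transporter family differed in level. Abcc3, which encodes the basolateral exporter MRP3, was at 45.7, 36.2 and 29.0 FPKM in the controls, with set A at 34.8, 44.9 and 40.0 and set B at 35.9, 39.0 and 35.6. Every mutant library lay inside the control range. Its log2 difference was 0.07 ± 0.13 (95% interval −0.24 to 0.38, adjusted p = 0.803). Abcc2, which encodes MRP2, an exporter of conjugates on the apical membrane, was at 37.8, 13.0 and 26.3 FPKM in the controls, with set A at 18.9, 19.9 and 20.9 and set B at 14.9, 57.6 and 23.4. The highest value was set B day 9, and the other 5 mutants lay inside the control range. Its log2 difference was −0.02 ± 0.43, with a wide interval (−1.02 to 0.98, adjusted p = 0.986), and it was positive in set B with that library (0.20 ± 0.50) and negative without it (−0.32). Abcb11, whose product serves the liver, was at 0.0333, 0.0103 and 0 FPKM in the controls, with set A at 0.0218, 0.0112 and 0 and set B at 0, 0.0315 and 0.0117, which is about 0 to 3 fragments per library, so no difference was detectable at this depth. Of 6 hepatocyte markers 3 had a mean under 1 FPKM, among them Alb and Fgb, at most at 0.473 and at 0. The other 3, Apob, Ttr and Cyp2e1, were at 48.4 to 111, 2.76 to 9.74 and 0.317 to 23.5 FPKM, with the highest Cyp2e1 value in set B day 9.

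**Figure D1:**
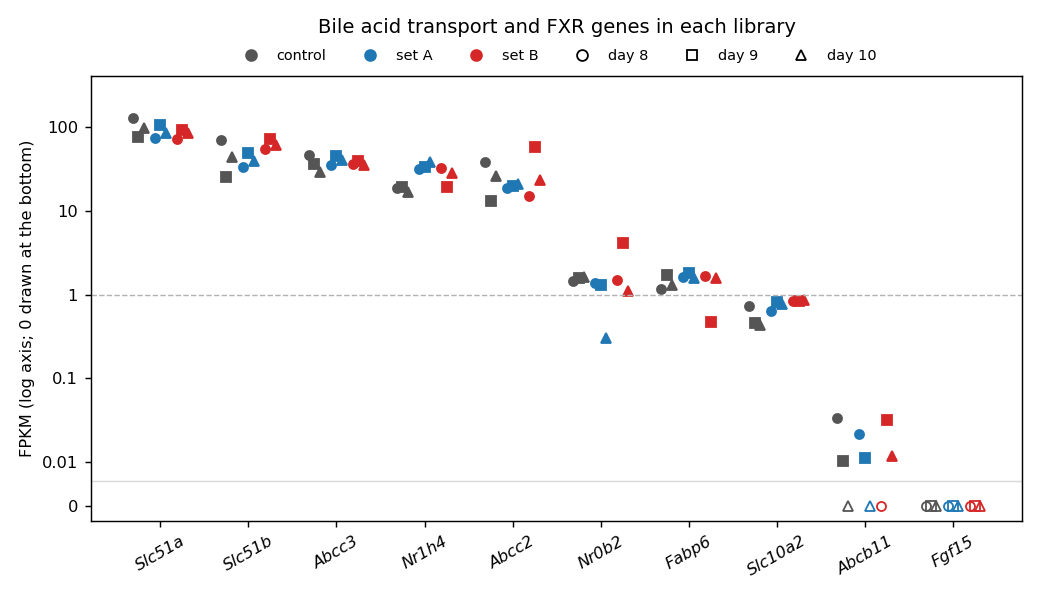
FPKM of each of the 10 genes on a log axis, 1 point per library, with colour for the group, shape for the day and open points for values of 0; the dashed line is 1 FPKM. Slc51a, Slc51b, Abcc3, Nr1h4 and Abcc2 lie between 13.0 and 127, Nr0b2 and Fabp6 near 1, Slc10a2 below 1, Abcb11 at most at 0.0333 and Fgf15 at 0.

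The receptor had the largest difference of the 7 genes tested between both sets and control. Nr1h4, which encodes FXR, was at 18.5, 19.3 and 16.7 FPKM in the controls, with set A at 31.5, 33.1 and 38.4 and set B at 32.6, 19.4 and 28.4. All 6 mutant libraries lay above all 3 controls, as did 5.19% of the 12097 genes tested, but set B day 9 did so by less than 0.1 FPKM. The mean was 18.2 ± 1.33 FPKM in control and 30.6 ± 6.38 in the mutants (SD, n = 3 and 6), a ratio of 1.68 (two-sided exact permutation p = 0.0238, the lowest possible for 3 against 6). Without set B day 9 the mutant mean was 32.8 ± 3.66 (SD, n = 5).

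Across all genes, the log2 difference of Nr1h4 between both sets and control was 0.69 ± 0.15 (95% interval 0.35 to 1.03), which did not pass (adjusted p = 0.0692 in limma). None of the 7 members passed here, against 1.16% of all genes tested. With the libraries rescaled to equal totals the difference was 0.73 and passed (adjusted p = 0.0361). Without set B day 9 it was 0.80, and Nr1h4 rose (adjusted p = 0.0076). It was then 1 of 7 members, while 8.22% of all genes passed in that fit, so the share of members called was near the background. Set A alone differed from control by 0.88 ± 0.17 (adjusted p = 0.0921, and 0.0224 without set B day 9). Set B alone differed by 0.51 ± 0.17 (adjusted p = 0.203) with it and by 0.71 without it (adjusted p = 0.0185). In these contrasts none of the members passed with all libraries, where 0.215% of all genes passed for set A and 0.628% for set B, and Nr1h4 alone passed without set B day 9, where 1.03% and 3.94% did. Set B was 0.37 lower than set A on the log2 scale (−0.37 ± 0.17, adjusted p = 1.00), and 0 genes of the table (0%) passed in that contrast in limma, with 376 at an unadjusted p under 0.05.

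Levels of some markers of other cell types also moved between these groups. The summed FPKM of the 6 fibroblast markers was 0.0181 to 0.117 in control, 0.597 to 5.92 in set A and 0.242 to 6.64 in set B, with none of the 6 above a mean of 0.789. Only Dcn of the 6 reached the minimum for testing, and it did not pass (adjusted p = 0.194, and 0.149 without set B day 9). The summed FPKM of 4 Paneth cell markers was 25910 to 43620 in control, 6971 to 13605 in set A and 14006 to 16276 in set B. Between both sets and control 3 of the 4 (Lyz1, Ang4 and Defa24) fell, where 1.16% of all genes passed. Their adjusted p ran from 0.0418 to 0.0473 (0.0263 to 0.176 when each of the 9 libraries was left out). The summed FPKM of 7 crypt base and dividing cell markers overlapped (1311 to 1517 in control, 848 to 1338 in set A and 1020 to 1574 in set B). None of these 7 passed with all libraries. The proliferation genes Mki67, Pcna and Top2a had lower mutant means (adjusted p from 0.0785 to 0.0837), as did Olfm4 and Smoc2. Lgr5 and Ascl2 had higher ones. Lgr5 was at 9.48 to 11.4 FPKM in control and 9.79 to 32.7 in the mutants (means 10.6 and 19.7). Ascl2 had means of 18.5 and 19.2. Pcna alone of the 7 fell without set B day 9 (−0.36, adjusted p = 0.0264), where 8.22% of all genes passed. The summed FPKM of 3 T cell markers was 8.94 to 13.6 in control and 1.94 to 11.2 in the mutants (median log2 −0.71), and none of the 3 passed. The part of these cell types in the Nr1h4 difference was not tested.

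Of the known FXR targets, the repressor was near 1 FPKM in most libraries and the hormone was listed at 0. Nr0b2, which encodes the repressor SHP, was at 1.44, 1.57 and 1.62 FPKM in the controls, with set A at 1.37, 1.30 and 0.305 and set B at 1.49, 4.10 and 1.12. The lowest value was the day-10 library of set A, where Nr1h4 was highest, and the highest was set B day 9, where Nr1h4 was lowest of the mutants. The other libraries did not follow this. The day-9 control had Nr1h4 at 19.3 FPKM, nearly as in set B day 9 (19.4), with Nr0b2 at 1.57. Set A had Nr1h4 at 31.5 and 33.1 on days 8 and 9, with Nr0b2 near control. The log2 difference between both sets and control was −0.08 ± 0.30 (95% interval −0.77 to 0.60, adjusted p = 0.899), on about 6 to 86 fragments per library. Fgf15, the enteric hormone that is among the strongest FXR targets in ileum, was listed at 0 in all 9 libraries. At its coding transcript length of 1810 bases, a count of 0 allows up to about 0.0865 to 0.0992 FPKM (3 fragments), so a level below that could not be seen. These fragment numbers use transcript lengths of another annotation than the authors' and cover counting error only.

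**Figure D2:**
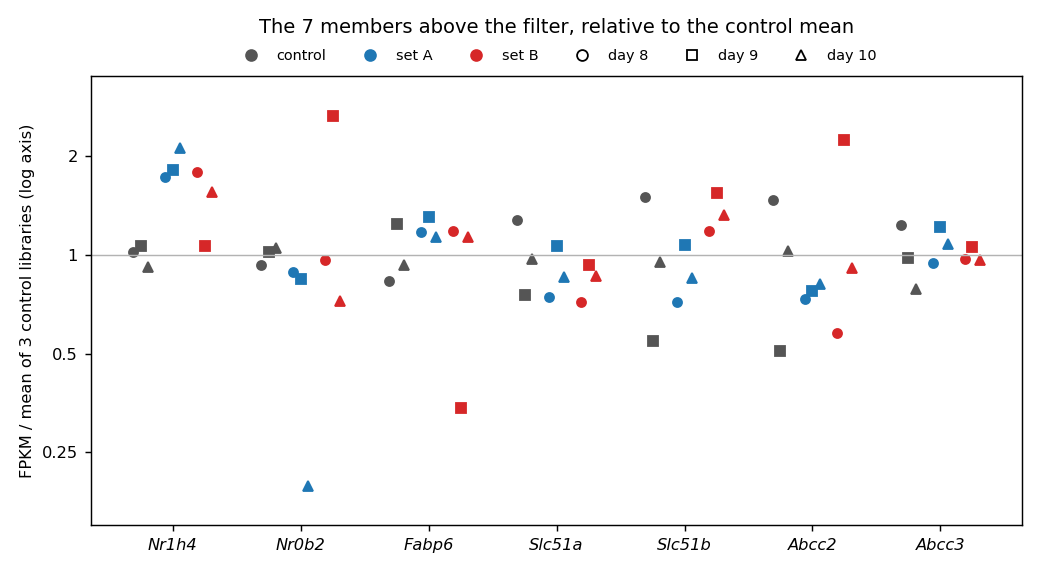
Level of each of the 7 genes above the minimum, divided by the mean of the 3 control libraries, on a log axis, with 1 point per library. Only Nr1h4 has all 6 mutant libraries above all controls, and set B day 9 is the highest point of Nr0b2 and Abcc2 and the lowest of Fabp6.

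**Figure D3:**
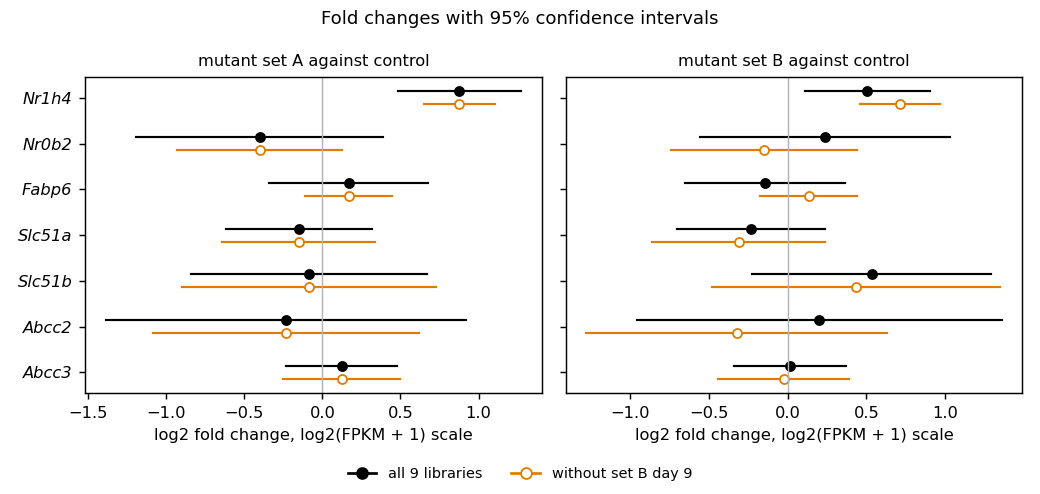
Log2 fold change against control on the log2(FPKM + 1) scale with its 95% confidence interval, for set A (left) and set B (right), with all 9 libraries (filled) and without set B day 9 (open). The intervals of Nr1h4 lie above 0 in both sets (0.48 to 1.27 and 0.11 to 0.90 with all libraries), and those of the other 6 genes include 0.

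Markers of mature enterocytes varied between libraries. The median log2(FPKM + 1) of the 14 enterocyte markers was 8.45, 7.44 and 8.01 in the controls, with set A at 7.46, 7.96 and 8.24 and set B at 7.44, 8.19 and 8.19. Among the controls, Slc51a, Slc51b and Abcc2 were highest in the day-8 library and lowest in the day-9 library, the same order as the markers. Abcc3 did not follow it (lowest on day 10), nor did Nr1h4, at 18.5 and 19.3 FPKM on days 8 and 9. In set A the markers were highest on day 10, as were Abcc2 and Nr1h4, whereas Slc51a, Slc51b and Abcc3 were highest on day 9. In set B the markers were lowest on day 8 and nearly level on days 9 and 10. Slc51a, Slc51b and Abcc2 were also lowest on day 8 there and highest on day 9. Abcc3 was lowest on day 10 and Nr1h4 on day 9. In bulk RNA fewer cells of a type and less RNA per cell cannot be told apart, and the part of enterocyte content in the members' values was not tested.

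By the rule of the 3 genes whose levels ran most alike over the 9 libraries (Pearson correlation on log2(FPKM + 1), a description in which the libraries share their groups), Nr1h4 was closest to Elf3 (0.98), an epithelial ETS factor, Pbxip1 (0.98) and Ssh3 (0.97), a phosphatase of the slingshot family that acts on cofilin. Elf3 was at 273 to 418 FPKM. Slc51a was closest to Mertk, Slc35e2 and Kxd1 (0.92 to 0.93), Slc51b to Srr, Edf1 and Mirlet7d (0.89 to 0.92) and Abcc3 to Retreg3, Ocm and Oaz1 (0.92 to 0.94). Abcc2 was closest to Cyp4b1, Gm10768 and Cdkn1a (0.96 to 0.97) and Nr0b2 to Id2, Als2cl and Pisd (0.96 to 0.97), and both had their highest value in set B day 9. Fabp6, which was lowest in that library, was closest to Pycard, Tsfm and B4gat1 (0.92 to 0.93).

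The members with the tightest known restriction to ileum, Slc10a2, Fabp6 and Fgf15, were set beside genes of other gut segments, because the labels name no segment. Other members of the same pathway were not low, with the exporter pair Slc51a and Slc51b at 71.7 to 127 and 25.1 to 71.1 FPKM. All 11 proximal small intestinal genes had a mean of at least 14.3 FPKM, but not all were that high in every library. Cybrd1 was at 3.36 to 3.53 FPKM in control and 11.6 to 61.7 in the mutants. Lct was at 48.1 to 138 in control and 2.58 to 98.1 in the mutants. Gata4, a transcription factor of the duodenum and jejunum that is known to hold ileal bile acid genes down there, was at 83.7 to 104 FPKM in the 9 libraries, Pdx1, a duodenal factor, at 17.0 to 29.98, Fabp1 at 523 to 1745 and Apoa4, an apolipoprotein of fat absorption, at 274 to 2016. Of 8 distal small intestinal genes outside the members 7 had a mean of at least 1 FPKM, led by Guca2a, the guanylin gene, at 253 to 430, Clec2h at 60.1 to 258 and Amn, a partner of the vitamin B12 receptor, at 27.1 to 49.2. The B12 receptor gene Cubn itself was at 0.0467 to 4.41 FPKM. Of 15 colonic genes 10 had a mean under 1 FPKM and 4 of these were listed at 0 in every library, among them Car1, Hoxa13 and Hoxd12, while Car4, a carbonic anhydrase, Retnlb, an inducible goblet cell gene, and Slc26a3, a chloride exchanger, were at 52.1 to 208, 1.90 to 257 and 41.4 to 59.0. The 5 posterior Hox genes in the list were at 0.356 or less. Every library showed the same order, with Gata4 at 83.7 or more and Slc10a2 at 0.851 or less in every library.

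**Figure D4:**
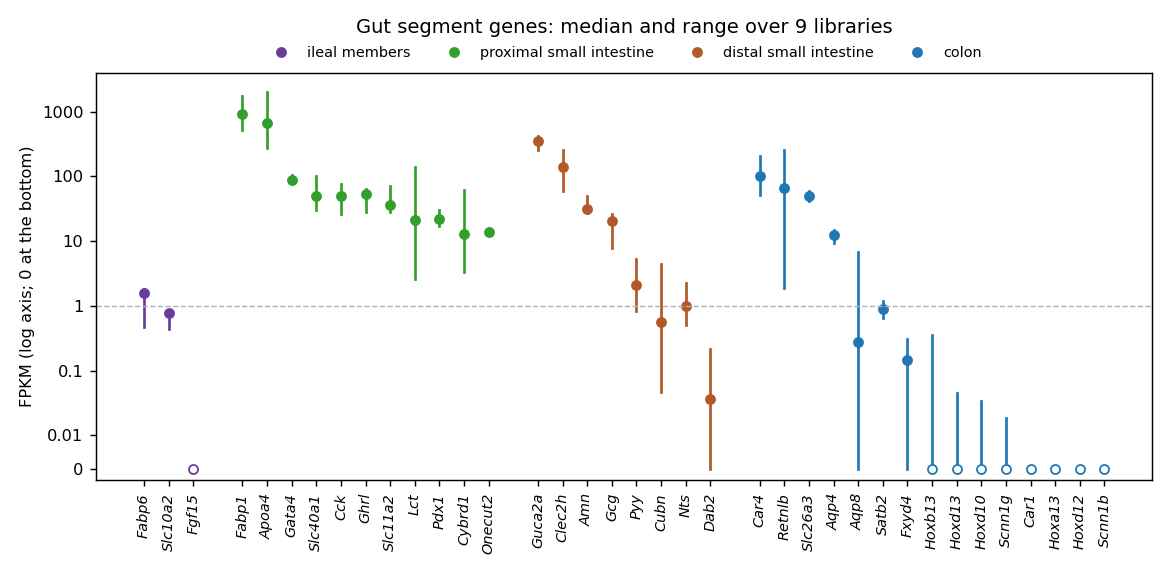
Median (point) and range (line) over the 9 libraries of genes of 4 groups, in FPKM on a log axis with 0 drawn at the bottom; the dashed line is 1 FPKM. The proximal genes all have a median above 10, whereas Fabp6 and Slc10a2 lie near 1 and Fgf15 and 8 of the 15 colonic genes have a median of 0. The exporter pair Slc51a and Slc51b is not drawn.

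The segment genes outside the members were tested in the same fits. With all libraries, 0 of the 11 proximal genes passed between both sets and control (median log2 0.01, against −0.002 over all genes tested), where 1.16% of all genes did. In set A 1 fell, Ghrl, the ghrelin gene (−0.82 ± 0.11, adjusted p = 0.0364), where 0.215% of all genes passed. The Ghrl call was lost when any library but set B day 9 was left out (adjusted p 0.0274 to 0.151 over the 9 omissions), and with equal totals (adjusted p = 0.102). Without set B day 9, 3 of the 11 passed, against 8.22% of all genes. Between both sets and control Cybrd1, a duodenal iron reductase, rose by 2.18 on the log2 scale (adjusted p = 0.0235). Cck and Lct, the cholecystokinin and lactase genes, fell by 0.95 and 3.45 (adjusted p = 0.0173 and 0.0276). In set B alone 0 of the 11 passed with all libraries. The same 3 passed there without set B day 9 (adjusted p = 0.0498, 0.0185 and 0.0421 for Cybrd1, Cck and Lct), where 3.94% of all genes passed. None of the 7 distal and 4 colonic genes tested passed in any contrast, with or without set B day 9. Gata4 differed by −0.09 ± 0.08 (95% interval −0.27 to 0.10, adjusted p = 0.574).

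Of 15 other enteric bile acid and sterol genes 10 were tested and none passed with all libraries (median log2 0.11). The highest were Npc1l1, the cholesterol uptake transporter, at 81.1 to 168 FPKM, and Abcg5 and Abcg8, which together return sterols to the lumen, at 44.5 to 87.2 and 16.7 to 44.7. Without set B day 9, Abcc4, which encodes the exporter MRP4, rose between both sets and control by 0.96 (adjusted p = 0.0371). It was 1 of the 10 tested, and 8.22% of all genes passed in that fit. It was at 0.659 to 0.727 FPKM in control and at 1.15 to 3.38 in the mutants. Only mutant libraries brought it to the minimum for testing, so its call is not independent of that filter. All 6 mutant libraries lay above all 3 controls, as they did for 5.19% of the genes tested. Gpbar1, the membrane bile acid receptor TGR5, and Klb, the coreceptor for FGF15, were at most 0.139 and 0.306 FPKM.

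Of 21 nuclear receptors and regulators of bile acid genes 20 were tested. With all libraries Cdx2, the intestinal homeobox factor, rose in set B (0.64 ± 0.10, adjusted p = 0.0442), where 0.628% of all genes passed. No other passed in any contrast (median log2 −0.03 between both sets and control). The Cdx2 call was kept only without the day-8 control or set B day 9, with adjusted p from 0.0263 to 0.176 over the 9 omissions. Rxra, the partner of FXR, was at 30.7 to 38.6 FPKM, Hnf4a, which drives many enterocyte genes, at 244 to 313, and Cdx1, an intestinal homeobox factor, at 152 to 207. Without set B day 9, 2 of the 20 fell and 1 rose between both sets and control, where 8.22% of all genes passed. Vdr, the vitamin D receptor, which also binds lithocholic acid, fell by 0.39 (adjusted p = 0.0186). Nr5a2, which encodes LRH-1, a coactivating receptor at bile acid genes, fell by 0.40 (adjusted p = 0.0325). Cdx2 rose by 0.42 (adjusted p = 0.0405). In set B alone Vdr also fell without that library (−0.48, adjusted p = 0.0243), where 3.94% of all genes passed.

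Of 9 further genes reported as responding to FXR 8 were tested. Ang, an antimicrobial ribonuclease of a family of close paralogs, so that its single value is uncertain, rose by 0.52 ± 0.08 between both sets and control (adjusted p = 0.0298) and by 0.64 ± 0.09 in set B (adjusted p = 0.0268), from 23.9 to 30.03 FPKM in control to 33.5 to 44.6 in the mutants. In these contrasts 1.16% and 0.628% of all genes passed. The ranges did not overlap, and 5.19% of the genes tested had all 6 mutant libraries above all 3 controls. The adjusted p, however, ran from 0.0174 to 0.116 between both sets and control, and from 0.0225 to 0.113 in set B, when each of the 9 libraries was left out. The call between both sets and control was kept without the day-8 library of set A or set B day 9. Cyp3a11, a bile acid hydroxylase, ran from 0.953 to 230 FPKM and differed by −2.93 ± 1.53 between both sets and control (adjusted p = 0.312). Without set B day 9, which held the highest value, it differed by −3.94 ± 1.00 and did not pass (adjusted p = 0.0597). Il18 and Ugt1a1 were at 23.9 to 93.2 and 30.8 to 82.8 FPKM and did not pass. Of 8 hepatic synthesis and uptake genes only Cyp27a1, which starts the acidic pathway of bile acid synthesis, reached a mean of 1 FPKM (5.13 to 12.9). Slc10a1, the hepatic uptake transporter NTCP, was at 0.0801 to 0.779, Slc27a5, a bile acid ligase, at 0.171 to 0.465, and Cyp7a1, the rate-limiting enzyme of the liver, was at most at 0.0248.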

How the data were processed

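Poly(A) RNA of 9 libraries was analysed from the deposited table of gene-level values, in which each library column carries its group and day. The deposited values were taken as FPKM, a unit inferred from the values the authors made (column sums differ, and low values step with transcript length); the submitters' processing notes list kallisto 0.46.1, DESeq2 1.40.1 and the mm9 build, with no roles or settings. Fragment counts are not used here, so depth was approximated from the smallest value steps and GENCODE M21 transcript lengths.

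Genes that reached 1 FPKM in 3 or more libraries were fitted as log2(FPKM + 1) with limma 3.58.1 in R 4.3.3 (3 group means, trended and robust variance), for 4 contrasts, with Benjamini-Hochberg adjustment over all genes and a threshold of 0.05. Fold changes on this scale understate the change of low genes. The fit was tested on simulated data. For 9 genes in 4 comparisons, 36 exact permutation tests were run with scipy 1.17.1, and their p-values are not adjusted.

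The members and lists were chosen with earlier results of these data known. From each list the text names up to 3 genes that passed and the 3 highest, and for each member the 3 genes most like it. Abcc4, Cybrd1, Cck, Lct, Vdr, Nr5a2, Rxra, Gpbar1, Klb, Pdx1, Cubn, Gcg, Pyy, Nts, Dab2, Car1, Hoxa13, Hoxd12, Cyp7a1, the overlapping genes and the cell type markers fall outside that rule and were picked after their values were seen. Alternatives were another pseudocount, 2 other filters, rescaling, a day block, library weights, fewer groups and each library left out. Promoter sequences are RefSeq's, on GRCm38.p6.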

Additional observations from a re-analysis of the deposited data

Results flagged for a closer look

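Of the 9 members above 0, 3 had a value at set B day 9 that lay far from the other 5 mutant libraries, by Dixon's ratio of the gap to the range (above the 95% critical value for 6 samples). Fabp6 was at 0.475 FPKM there (ratio 0.819), below the other mutants. Nr0b2 was at 4.10 FPKM (ratio 0.689) and Abcc2 at 57.6 FPKM (ratio 0.800), both above the other mutants. Chance flags about 1 in 20 groups, and all 3 flags fell on 1 library, which also stood apart in its first principal component and in Xist and Y-linked genes.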

How the results depend on the processing

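Between both sets and control 140 genes passed (62 higher, 78 lower). The count was 80 with no filter, 1438 with library weights and 169 with totals made equal (133 higher, 36 lower). It ran from 17 to 994 when each library was left out, lowest without the day-10 control and highest without set B day 9. For set A 26 passed, 44 with library weights, and 3 to 124 with a library left out, lowest without its day-9 library and highest without set B day 9. For set B 76 passed, 2035 with library weights, 33 with its own groups only, and 18 to 477 with a library left out, lowest without its day-10 library and highest without its day-9 library. Between the sets 0 passed, 2 with a pseudocount of 0.1, 3 with library weights, and 0 to 1 with a library left out. With the day as a replicate block 97, 16, 63 and 0 genes passed in these 4 contrasts. Same-day libraries of control and either set did not deviate together (correlations −0.24 to 0.07). Those of sets A and B did so on days 9 and 10 (0.40 and 0.62) but not on day 8 (−0.02). Pooling both sets as one group, an alternative chosen after seeing the data, gave 181.

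Of 440 alternative fits of the 7 members tested, 433 stayed on the same side of the threshold, and none of the 376 for members other than Nr1h4 passed (lowest adjusted p 0.213). Nr1h4 kept its sign, with 0.61 to 0.80 and adjusted p from 0.0076 to 0.234 between both sets and control, and it passed there also with library weights (0.00955). In set A it passed with its own groups only (0.0387) and in set B with library weights (0.00973). A filter at 5 FPKM left no value for Fabp6 and Nr0b2. Depth limits Abcb11, Fabp6 and Fgf15, which rest on 0 to 16 fragments.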
